A study of Mus musculus with 32 samples.

Results

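The genes that write, maintain and remove DNA methylation were followed in mouse epiblast-derived cells labelled as presomitic mesoderm (PSM). The PSM is the tissue that forms the somites. The group was set by gene symbol and holds 8 of the 21886 genes of the count table: the maintenance methyltransferase Dnmt1 and its partner Uhrf1, the de novo enzymes Dnmt3a and Dnmt3b with their cofactor Dnmt3l, and the dioxygenases Tet1, Tet2 and Tet3. All 8 have a row, and 7 passed the expression filter of at least 1 CPM, a count scaled to the size of its library, in at least 16 of 32 libraries. Dnmt3l did not pass. The filter kept 11772 genes in all.

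DNA methylation in mammals lies mostly on the cytosine of CpG dinucleotides. After replication Uhrf1 recognises the half-methylated strand pair and recruits Dnmt1, which copies the mark, while Dnmt3a and Dnmt3b set it on unmethylated DNA and catalytically inactive Dnmt3l stimulates them. Tet enzymes oxidise methylcytosine to hydroxymethylcytosine and further products, which base excision repair or replication then removes. The epiblast is known for high Dnmt3b, and Dnmt3b and Tet1 are commonly described as falling when pluripotent cells differentiate.

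All cells came from 1 mouse epiblast stem cell line with a Hes7 luciferase reporter on the AES0204 background, and the growth conditions were the same in both groups. The cells were kept for 30 h in CDMi medium with SB431542 (10 µM, an inhibitor of TGF-β receptors), LDN193189 (250 nM, an inhibitor of BMP receptors), CHIR99021 (10 µM, an inhibitor of GSK3 that activates Wnt signalling) and bFGF (20 ng/ml), and then in the same medium with CHIR99021 lowered to 1 µM. The groups are the time courses Ex4, with 16 dishes frozen at labelled times from 155 to 405 min, and Ex5, with 16 dishes from 165 to 425 min. One library was made per dish, and the labels used here do not give the event that time zero marks. No library of undifferentiated epiblast stem cells was analysed here, so every change below is a change within these minutes.

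Libraries held 19.3 to 29.5 M counts in Ex4 and 16.1 to 28.6 M in Ex5. Each time has 1 library per experiment, so the spread is that of libraries around fitted curves, and p-values measure only that spread, which may be technical. The labelled PSM identity was checked against markers. The summed level of 8 PSM markers was 2780 to 3490 CPM in Ex4 and 3410 to 4050 CPM in Ex5, and all 8 passed the filter. On the average of both experiments, 4 of these 8 rose with time and 3 fell (Msgn1, T and Cdx2). Of all tested genes 26.8% rose and 26.6% fell. In log2 per 100 min, Msgn1, T and Cdx2 had slopes of 0.033, 0.0027 and -0.0016 in Ex4. In Ex5 they had -0.247, -0.198 and -0.124. Dll1, counted as rising, had 0.129 in Ex4 and -0.020 in Ex5, while Tbx6, Hes7 and Dll3 had positive slopes in both. Slopes differed between the experiments (adjusted p under 0.05) for 4 of the 8, beside 16.1% of all genes. Markers of anterior PSM and somite summed to 55.1 to 81.2 CPM in Ex4 and 61.5 to 98.6 CPM in Ex5. Of 8 listed, 4 passed the filter, and of these 1 rose and 2 fell. Of 8 epiblast markers, 4 passed the filter, and all 4 fell with time, with summed levels of 115 to 244 CPM in Ex4 and 77 to 182 CPM in Ex5. Summed markers of endoderm (2.74 to 4.51 CPM), of lateral, cardiac and vascular mesoderm (2.73 to 7.05 CPM), of germ cells (1.92 to 8.16 CPM) and of neural cells (28.1 to 65.6 CPM) were lower than those of PSM and epiblast. Of 4 tested neural markers 2 rose (Irx3 and Pax6) and 1 fell, and no listed marker was at 0 in every library. In bulk RNA, fewer cells of a type and less RNA per cell cannot be told apart. The 5 libraries farthest from the rest on the first principal component of the detrended data were those of 155 and 405 min in Ex4 and of 180, 195 and 255 min in Ex5. The detrended levels of Dnmt3b (r = 0.74), Uhrf1 (r = 0.68), Tet1 (r = -0.74) and Tet2 (r = -0.47) moved with that component over the 32 libraries. These values are a description of the libraries they share. Tests of members whose call changed without these 5 are also given without them, while correlations between genes were not recomputed.

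Maintenance genes were the most abundant of the group. Because longer transcripts give more reads, levels were compared between genes as CPM per kilobase of annotated exon. On this scale Uhrf1 had a median of 166 over the 32 libraries (range 148 to 181), at percentile 98 of the tested genes. Dnmt1 followed at 71.9 (66.1 to 77.5) and Dnmt3b at 35.9 (29.6 to 39.9), so Uhrf1 stood 2.31 times above Dnmt1, and Dnmt1 2.0 times above Dnmt3b, at the median library. The remaining genes were in the middle or lower part of the distribution. Dnmt3a had 8.31 (6.94 to 10), Tet3 6.79 (5.37 to 7.5), Tet1 3.31 (2.62 to 4.39) and Tet2 0.898 (0.731 to 1.06), the last at percentile 12.6. Neighbours in this order did not overlap over libraries except Dnmt3a and Tet3, and of these Dnmt3a was the higher within 32 of 32 libraries. With the length of the longest annotated transcript in place of all exons the order was the same, from 198 for Uhrf1 and 90.3 for Dnmt1 down to 1.65 for Tet2.

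**Figure D1:**
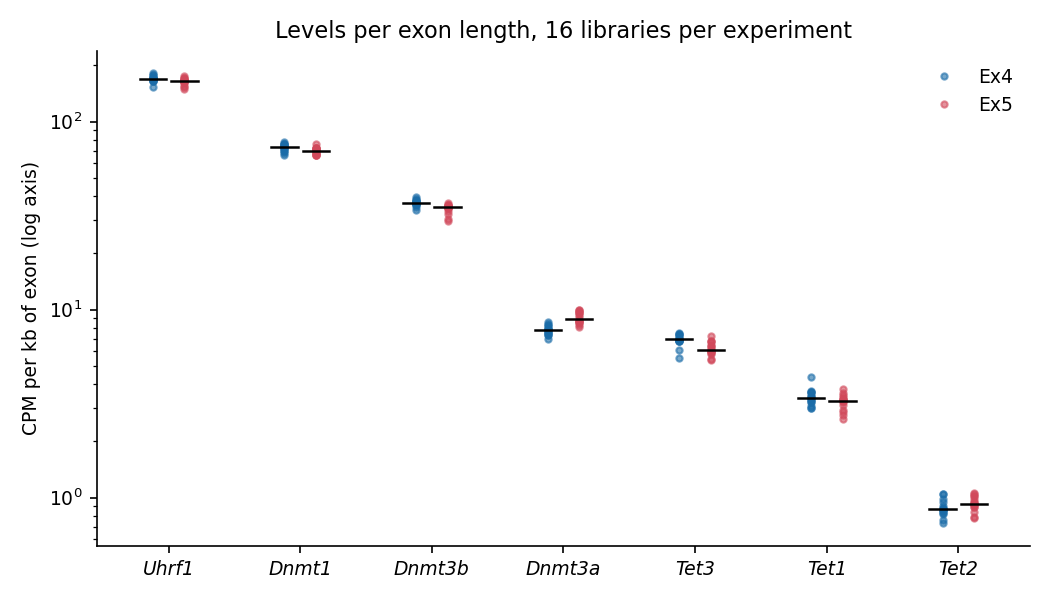
Each point is 1 library, with CPM per kilobase of exon on a log axis for the 7 tested genes in Ex4 and Ex5 (16 libraries each). The levels fall from a median of 166 for Uhrf1 to 0.898 for Tet2, and only Dnmt3a and Tet3 are neighbours whose ranges overlap.

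The members' levels by time are the base of what follows. In the trend test a gene's slope is its log2 change per 100 min, averaged over both experiments, and a call is a Benjamini-Hochberg adjusted p under 0.05 from edgeR's quasi-likelihood test across all 11772 genes. Dnmt3a, Dnmt3b, Uhrf1 and Tet3 rose, and no member fell. Change with time was common in these cells: 53.3% of tested genes were called, 26.8% rising and 26.6% falling, so 4 called of 7 is near the share of all genes. Within Ex4 alone of the same fit, 3 of 7 members were called, all upward, beside 32.5% of all genes (16.9% rising and 15.5% falling), and within Ex5 2 of 7, both upward, beside 51.2% (25.8% rising and 25.3% falling). The members' median slope was 0.05 beside a median of -0.0016 over all genes.

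**Figure D2:**
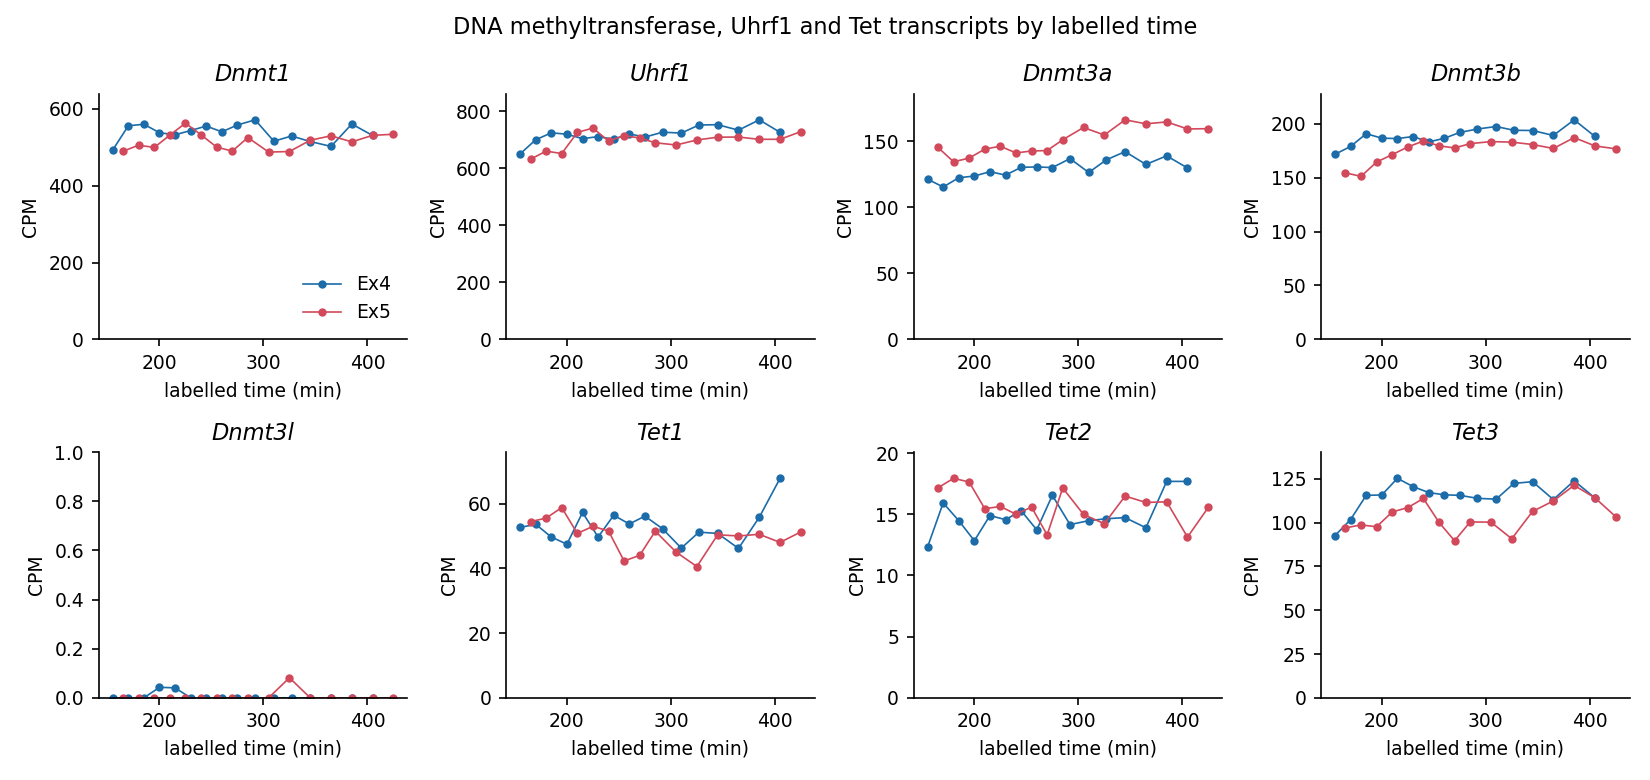
CPM of each of the 8 genes against the labelled time in min, 1 point per library, blue for Ex4 and red for Ex5, each axis starting at 0 and with its own range. Dnmt3a climbs in both experiments and is higher in Ex5, Dnmt1 stays between 487 and 571 CPM, and Dnmt3l lies at or near 0.

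Dnmt1 and Uhrf1 are the pair that copies methylation at the replication fork. Both are known as genes transcribed with S phase, which E2F factors control, so the 250 bases before each RefSeq start (GRCm38.p6) were searched on both strands for the strict E2F forms TTTCGCGC and TTTGGCGC. These forms occur in 0.655% of all 32817 RefSeq windows of this length. One of 3 Dnmt1 windows and 1 of 2 Uhrf1 windows hold a match, 219 and 185 bases before the respective start, and no window of the other members does. The forms contain CpG, and these 2 windows hold 26 and 30 CpG dinucleotides, beside a median of 6.0 over all windows. Member windows without a match hold from 2 to 51. The share of matches among windows of like CpG content was not taken. The matches are shown 5′ to 3′ on the strand of the gene, with the matching bases in capitals. The Dnmt1 stretch lies at chr9:20952824-20952853 on the minus strand, and the Uhrf1 stretch at chr17:56304117-56304146 on the plus strand. Both windows lie within the full span of their gene, upstream of a start of a shorter transcript, and 166 of the 250 Dnmt1 bases and 0 of the Uhrf1 bases are annotated as exon.
Dnmt1: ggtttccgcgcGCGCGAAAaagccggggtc
Uhrf1: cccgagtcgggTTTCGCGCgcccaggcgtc
A match is a description of the letters and not a site shown to be bound.

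Dnmt1 (ENSMUSG00000004099.16, chromosome 9, 20907209 to 20959888, minus strand, GENCODE M21) had 493 CPM at its lowest in Ex4, a median of 539 and 571 at its highest. In Ex5 these values were 487, 516 and 563 CPM. The first library was the lowest of Ex4, early and late libraries overlapped in both experiments, and the coefficient of variation was 4.21% in each. The slope was 0.0031 ± 0.015 (SE), with a 95% interval of -0.028 to 0.034 and an adjusted p of 0.878 in edgeR's quasi-likelihood test. Over the 240 min that both experiments cover, the fitted change was 0.52%. Its interval leaves out slopes as large as that of Dnmt3a.

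Uhrf1 (ENSMUSG00000001228.14, chromosome 17, 56303321 to 56323486, plus strand) ran from 650 CPM through a median of 722 to 769 CPM in Ex4, and from 631 through 701 to 741 CPM in Ex5. The lowest library was the first one in each experiment. The 4 latest Ex4 libraries (726 to 769 CPM) lay above the 4 earliest (650 to 724 CPM), while in Ex5 they overlapped (701 to 728 against 631 to 725 CPM). The share of all tested genes with such an order in a single experiment was not taken. Uhrf1 rose by 0.05 ± 0.012 log2 per 100 min, which is 7.88% over 240 min (edgeR quasi-likelihood, adjusted p = 0.00109). The slope passed in Ex4 (0.06, adjusted p = 0.00653) and not in Ex5 (0.03, adjusted p = 0.0553), and the difference of the slopes was not called (-0.02 ± 0.021, adjusted p = 0.534). Fitted on Ex5 alone, the call was lost (0.03, adjusted p = 0.189).

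The ratio of Uhrf1 to Dnmt1 within a library does not depend on scaling. It ran from 1.26 through a median of 1.33 to 1.46 in Ex4 and from 1.29 through 1.35 to 1.44 in Ex5. Its log2 rose by 0.04 ± 0.012 per 100 min in a two-sided permutation test of the times within each experiment (p = 0.00351, adjusted p = 0.0175 over 5 pairs). The rise was not past the threshold in Ex5 alone (0.02, adjusted p = 0.269) and was larger in Ex4 alone (0.06, adjusted p = 0.0307).

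S phase genes were listed beside this pair. Their summed level ran only from 4740 to 5270 CPM. Of 21 tested 4 rose and 8 fell, with a median slope of -0.03, beside 26.8% rising and 26.6% falling of all tested genes. Ccne2 (-0.21 ± 0.038) and Ccne1 (-0.13 ± 0.013), the E-type cyclins of the G1/S step, and Mcm4 (-0.08 ± 0.015), a subunit of the replicative helicase, fell. Gins2, a subunit of the same helicase complex, rose (0.10 ± 0.017). Of 12 G2/M genes 3 rose and 2 fell, beside the same shares of all genes, with a median slope of -0.0083. Ube2c (0.08 ± 0.021), Cdc20 (0.05 ± 0.019) and Cenpe (0.05 ± 0.020), which act in mitosis, rose, and the mitotic kinesin Kif11 fell (-0.04 ± 0.016). The part of cell cycle composition in the members' levels was not tested.

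Dnmt3a and Dnmt3b set new methylation, and both rose in both experiments. Dnmt3a (ENSMUSG00000020661.15, chromosome 12, 3806007 to 3914443, plus strand) ran from 115 through a median of 130 to 142 CPM in Ex4, and from 135 through 149 to 166 CPM in Ex5. The highest library was that of 345 min in each. The 4 latest libraries lay above the 4 earliest in Ex4 (130 to 142 against 115 to 124 CPM) and in Ex5 (159 to 165 against 135 to 146 CPM). Dnmt3a was the 1 of 7 members with no overlap in both experiments, which held for 7.24% of tested genes, while the reverse order held for 6.98% of genes and for 0 members. Its slope was the largest of the group, 0.09 ± 0.014 log2 per 100 min or 17.1% over 240 min (edgeR quasi-likelihood, adjusted p = 3.39e-07). It passed in Ex4 (0.08, adjusted p = 0.000918) and in Ex5 (0.11, adjusted p = 7.80e-06). The rise stayed called in every alternative run, but with offsets for GC content and length it was smaller (0.06, adjusted p = 0.00171). An antisense gene, Dnmt3aos, shares 133 bases, or 0.8%, of the Dnmt3a exons, and the strand setting of the counting is not given in the sources used here.

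Dnmt3b (ENSMUSG00000027478.15, chromosome 2, 153649450 to 153687730, plus strand) ran from 172 through a median of 189 to 204 CPM in Ex4 and from 151 through 179 to 187 CPM in Ex5. The lowest libraries were among the first 2 of each experiment and the highest were those of 385 min. In Ex5 the 4 latest libraries (177 to 187 CPM) lay above the 4 earliest (151 to 172 CPM), and in Ex4 they overlapped (188 to 204 against 172 to 191 CPM). As for Uhrf1, the share of all tested genes with such an order in a single experiment was not taken. Dnmt3b rose by 0.06 ± 0.014 log2 per 100 min, 10.6% over 240 min (edgeR quasi-likelihood, adjusted p = 0.000385), and passed in Ex4 (0.05, adjusted p = 0.0304) and Ex5 (0.07, adjusted p = 0.00285). Dnmt3a and Dnmt3b were the 2 of 7 members called upward in both experiments, beside 11.5% of all tested genes, and 0 were called downward in both, beside 10.5%. The call held in each alternative fit run.

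The rise of Dnmt3b was uneven. A quadratic term added to the fit was negative for Dnmt3b (-0.06 ± 0.015, edgeR quasi-likelihood, adjusted p = 0.00488), as the levels climbed early and then levelled. With Tet1 it was 1 of 2 members of 7 called for curvature, beside 18.5% of all genes (8.2% positive and 10.3% negative). Without the first and last time points the curvature of Dnmt3b was no longer called (-0.05, adjusted p = 0.0947), nor without the 5 libraries that stand apart (-0.04, adjusted p = 0.208).

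Dnmt3l (ENSMUSG00000000730.13, chromosome 10, 78041947 to 78063622, plus strand), the cofactor known from germ cells and early embryos, was not detectable beyond stray counts. It had 4 counts in all over 32 libraries, in 3 libraries, with 2 at most in any, and the other 29 libraries were at 0. A count of 0 allows up to 3 counts, which is 0.102 to 0.186 CPM depending on depth, and this limit covers counting error only. Dnmt3c, a rodent paralog of Dnmt3b, had 1 to 10 counts per library and stayed under the filter.

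The ratio of Dnmt3a to Dnmt3b ran from 0.64 through a median of 0.686 to 0.734 in Ex4 and from 0.767 through 0.86 to 0.941 in Ex5. Every Ex5 library lay above every Ex4 library, which is given as a description. Its log2 slope of 0.03 ± 0.016 per 100 min did not pass (permutation test, p = 0.0624, adjusted p = 0.104 over 5 pairs). Without the 5 libraries that stand apart it was 0.04 with an adjusted p of 0.0492.

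**Figure D3:**
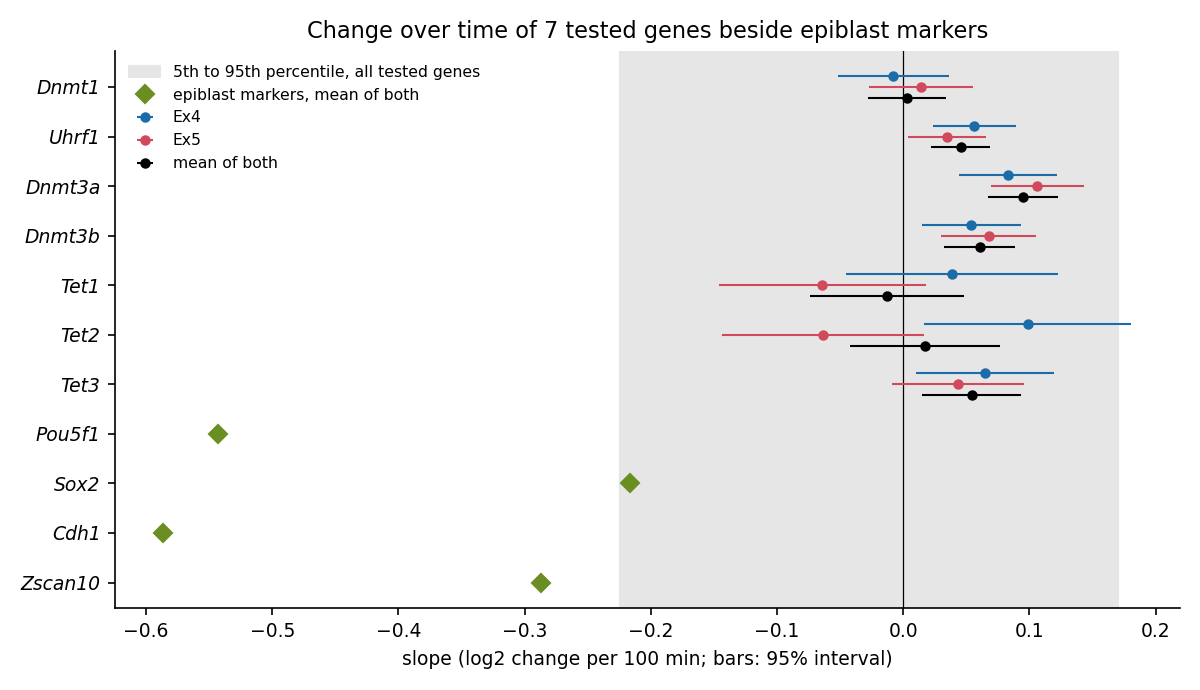
Slopes in log2 change per 100 min with 95% intervals for the 7 tested genes in Ex4 (blue), Ex5 (red) and their mean (black), above 4 epiblast markers (green diamonds), the grey band spanning the 5th to 95th percentile of all tested genes. Members lie between -0.06 and 0.11, and Pou5f1, Cdh1 and Zscan10 lie to the left of the band, with Sox2 near its edge.

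Epiblast genes, chosen after their values were seen, are given beside these changes. Pou5f1, the Oct4 gene, fell by 0.54 ± 0.024 log2 per 100 min (edgeR quasi-likelihood, adjusted p = 3.30e-20), within a range of 21.4 to 84.5 CPM. Cdh1, the epithelial cadherin lost as mesoderm forms, fell by 0.59 ± 0.021, the pluripotency factor Zscan10 by 0.29 ± 0.022 and Sox2 by 0.22 ± 0.027. Nanog, Fgf5, Otx2 and Utf1 had a mean under 1 CPM. Dnmt3b and Tet1, the members best known from the epiblast, had slopes of 0.06 and -0.01 in the same libraries. The 95% interval of Tet1 (-0.07 to 0.05) leaves out a fall of the size seen for any of the 4 epiblast genes.

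Tet1, Tet2 and Tet3 were less abundant per kilobase than the tested methyltransferases, and their coefficients of variation, 7.19 to 10.1% in Ex4 and 8.4 to 9.78% in Ex5, were above those of 3.74 to 5.46% and 4.14 to 6.86% for the other members. Tet1 (ENSMUSG00000047146.17, chromosome 10, 62804570 to 62908996, minus strand), the main family member of pluripotent cells, ran from 46.2 through a median of 52.4 to 67.8 CPM in Ex4 and from 40.6 through 50.7 to 58.8 CPM in Ex5. The highest Ex4 library was the last, at 405 min, and the highest Ex5 library was an early one, at 195 min, both among the 5 that stand apart. The slope did not pass in both experiments together (-0.01 ± 0.030, edgeR quasi-likelihood, adjusted p = 0.738), in Ex4 (0.04, adjusted p = 0.512) or in Ex5 (-0.06, adjusted p = 0.185). The curvature of Tet1 was positive (0.11 ± 0.037, adjusted p = 0.0393). In Ex5 the lowest levels lay between 255 and 325 min, while in Ex4 the lowest library was a late one, at 365 min, and the last library stood above the rest. It was not called without the first and last time points (0.09, adjusted p = 0.217) or without the 5 libraries (0.04, adjusted p = 0.551), and with GC and length offsets it was 0.07 (adjusted p = 0.0331).

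Tet2 (ENSMUSG00000040943.12, chromosome 3, 133463679 to 133545139, minus strand), known from blood stem cells, was the least abundant tested member. It ran from 12.3 through a median of 14.6 to 17.7 CPM in Ex4 and from 13.1 through 15.6 to 17.9 CPM in Ex5. The lowest Ex4 library was the first and the highest the last, while in Ex5 the highest was the second, at 180 min. The mean slope did not pass (0.02 ± 0.029, edgeR quasi-likelihood, adjusted p = 0.632), with 0.10 in Ex4 (adjusted p = 0.0593) and -0.06 in Ex5 (adjusted p = 0.177).

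The slopes of Tet2 differed between the experiments by -0.16 ± 0.055 for Ex5 minus Ex4 (edgeR quasi-likelihood, adjusted p = 0.0377). Tet2 was the 1 of 7 members called for this difference, beside 16.1% of all genes (7.03% positive and 9.06% negative). Tet1 had a difference of -0.10 ± 0.056 that was not called (adjusted p = 0.211). The Tet2 call was lost without any 1 of 8 libraries, the time points 1, 4, 15 and 16 of Ex4 and 1, 2, 3 and 15 of Ex5, with adjusted p up to 0.115. It was lost without the 5 libraries that stand apart (-0.08, adjusted p = 0.489), without the first and last time points (-0.11, adjusted p = 0.28) and with GC and length offsets (-0.12, adjusted p = 0.0608).

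Tet3 (ENSMUSG00000034832.15, chromosome 6, 83362373 to 83459084, minus strand), the family member of the zygote and of differentiated cells, was the most abundant Tet gene, 2.02 times Tet1 per kilobase at the median library, and Tet1 was 3.65 times Tet2. It ran from 92.6 through a median of 116 to 125 CPM in Ex4 and from 89.7 through 102 to 121 CPM in Ex5. The first Ex4 library was the lowest of that course, and the Ex5 levels dipped in the middle. Tet3 rose by 0.05 ± 0.019 log2 per 100 min, 9.44% over 240 min (edgeR quasi-likelihood, adjusted p = 0.0177), without passing in Ex4 (0.06, adjusted p = 0.0622) or in Ex5 (0.04, adjusted p = 0.156). The call was lost without the first Ex4 library (0.04, adjusted p = 0.0604), without the 5 libraries (0.04, adjusted p = 0.101), without the first and last time points (0.05, adjusted p = 0.0733) and at 165 to 405 min alone (0.04, adjusted p = 0.0691). With GC and length offsets the slope was 0.02 (adjusted p = 0.279), and fits of Ex4 alone (adjusted p = 0.0871) and Ex5 alone (adjusted p = 0.185) did not call it either.

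No ratio within the Tet family passed its test over all libraries. Tet1 over Tet3 ran from 0.408 through a median of 0.454 to 0.594 in Ex4 and from 0.416 through 0.476 to 0.602 in Ex5, with a log2 slope of -0.08 ± 0.035 per 100 min (permutation test, p = 0.0346, adjusted p = 0.0865 over 5 pairs). Its slope passed in Ex5 alone (-0.12, adjusted p = 0.0327) and without the 5 libraries that stand apart (-0.08, adjusted p = 0.0227). In Ex4 alone it did not (-0.03, adjusted p = 0.635). Tet2 over Tet3 had -0.05 ± 0.035 (adjusted p = 0.167). It had -0.13 in Ex5 alone (adjusted p = 0.0327) and, with the other sign, 0.03 in Ex4 alone (adjusted p = 0.635). Tet1 over Tet2 had -0.02 ± 0.025 (adjusted p = 0.359).

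**Figure D4:**
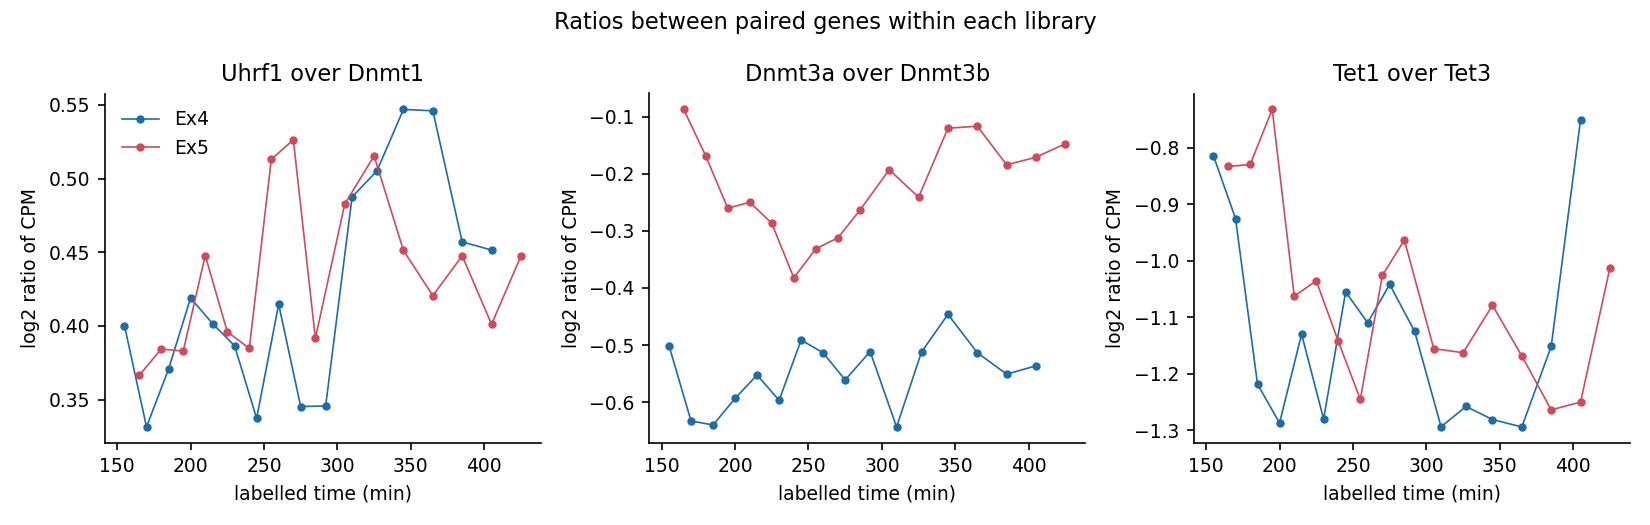
The log2 ratio of CPM within each library against the labelled time in min for pairs of genes that share a step, blue for Ex4 and red for Ex5. The Dnmt3a over Dnmt3b points of Ex5 all lie above those of Ex4, and the Uhrf1 over Dnmt1 points climb with time (slope 0.04 log2 per 100 min).

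Levels also differed between the experiments. At 285 min, the centre of the fit, 5 of 7 members were called, 1 higher and 4 lower in Ex5, beside 55.1% of all genes (27.4% higher and 27.7% lower). Dnmt3a was higher in Ex5 by 0.21 ± 0.020 log2 (edgeR quasi-likelihood, adjusted p = 1.31e-11), and its paralog Dnmt3b was lower by -0.11 ± 0.020 (adjusted p = 9.12e-06). Tet3 was lower in Ex5 by -0.16 ± 0.028 (adjusted p = 8.35e-06), Dnmt1 by -0.06 ± 0.022 (adjusted p = 0.0196) and Uhrf1 by -0.05 ± 0.017 (adjusted p = 0.00577). Tet1 (-0.09 ± 0.044, adjusted p = 0.0698) and Tet2 (0.07 ± 0.042, adjusted p = 0.176) were not called.

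The experiments overlapped for each member, so these are shifts within the range of single libraries. Of 7 members 0 had every Ex5 library above or below every Ex4 library, which held for 1.67% and 1.86% of all genes. With a quadratic time term the Uhrf1 difference was not called (-0.05, adjusted p = 0.0966) and that of Tet3 was larger (-0.25, adjusted p = 7.84e-07). Tet1 was called with GC and length offsets (-0.09, adjusted p = 0.00691) and without time point 11 (-0.11, adjusted p = 0.0338) or 14 (-0.11, adjusted p = 0.0303) of Ex4 or time point 3 of Ex5 (-0.10, adjusted p = 0.0406). Experiment cannot be told apart from any batch of culture or sequencing, as each experiment is 1 course.

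The libraries were collected to follow the segmentation clock, the oscillator that times somite formation, of which Hes7 is a core repressor. The phase was read from Hes7 itself, with 123 to 284 CPM in Ex4 and 152 to 437 CPM in Ex5 and a fitted period of 135 min, and rhythm was tested on cosine and sine terms of that phase. Tet3 was the 1 of 7 members called, beside 1.32% of all genes. Its fitted peak-to-trough difference was 0.19 ± 0.040 log2, a 1.137-fold change, with the peak 2.82 min from that of Hes7 (edgeR quasi-likelihood, adjusted p = 0.0194). Uhrf1 had 1.05-fold (adjusted p = 0.262), Dnmt3b 1.04-fold (adjusted p = 0.498), and the other members had adjusted p from 0.686 for Tet1 to 0.922 for Dnmt1.

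After removal of each experiment's level and slope, Tet3 in the 8 Ex4 libraries within 33.8 min of a Hes7 peak ran from -0.08 through a median of 0.06 to 0.16 log2, and in the 8 others from -0.23 through -0.04 to 0.04. In Ex5 the 9 libraries near a peak ran from -0.20 through 0.08 to 0.19, and the 7 others from -0.21 through -0.05 to -0.02. The median was higher near the peak in both experiments, and the ranges overlapped in both. The whole detrended range of Tet3 was -0.23 to 0.19, beside -0.65 to 0.56 for Hes7.

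**Figure D5:**
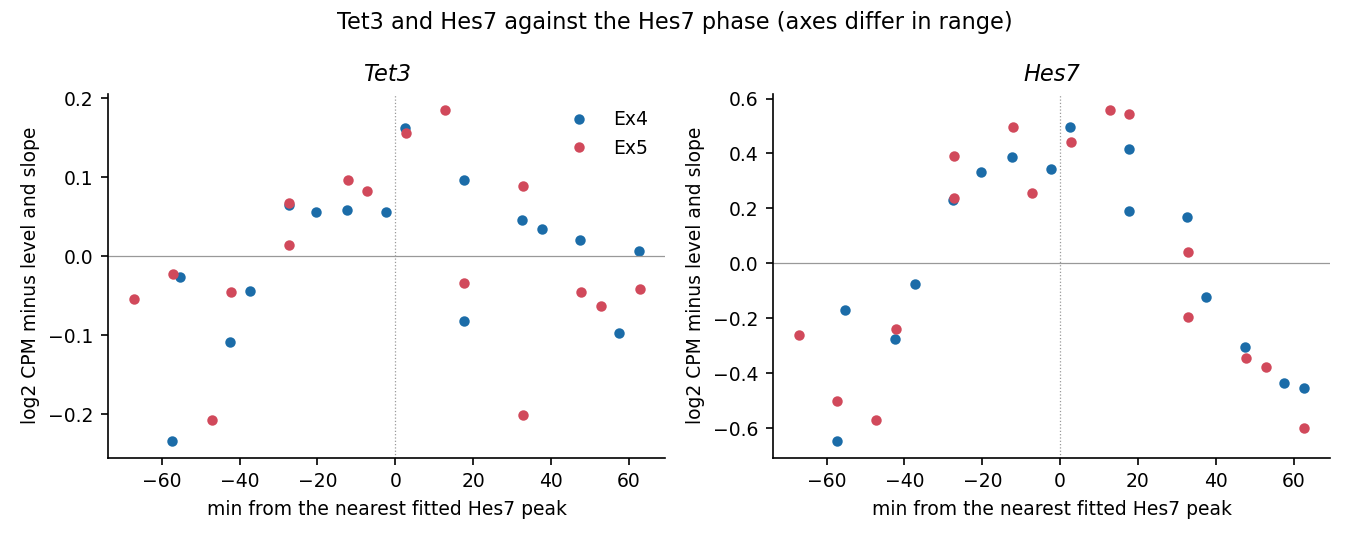
Log2 CPM after removal of each experiment's level and slope against min from the nearest fitted Hes7 peak, for Tet3 and Hes7, 1 point per library, with different vertical ranges. Tet3 spans -0.23 to 0.19 and Hes7 -0.65 to 0.56, and the Tet3 libraries near the peak overlap with the others.

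The Tet3 rhythm depended on single libraries and on the period. It was not called without time point 1 of Ex4 (0.16, adjusted p = 0.0644), time point 5 of Ex4 (0.17, adjusted p = 0.0523) or time point 6 of Ex5 (0.17, adjusted p = 0.0598). It was not called without the 5 libraries (0.18, adjusted p = 0.0547), without the first and last time points (0.16, adjusted p = 0.135), in Ex4 alone (0.18, adjusted p = 0.263), in Ex5 alone (0.19, adjusted p = 0.467), or with a period of 120 min (0.16, adjusted p = 0.0998) or 180 min (0.13, adjusted p = 0.32). With GC and length offsets it stayed called (0.18, adjusted p = 0.000178).

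As the one member called with the Hes7 phase, Tet3 is shown with the 250 bases before its RefSeq start, chr6:83441679-83441928 on the minus strand (GRCm38.p6), 5′ to 3′ on the strand of the gene. The capitals mark matches on either strand to the N-box CACNAG, known as a target of Hes repressors, and to TGGGAA, the core known for RBPJ, the DNA-binding partner of Notch.
Tet3: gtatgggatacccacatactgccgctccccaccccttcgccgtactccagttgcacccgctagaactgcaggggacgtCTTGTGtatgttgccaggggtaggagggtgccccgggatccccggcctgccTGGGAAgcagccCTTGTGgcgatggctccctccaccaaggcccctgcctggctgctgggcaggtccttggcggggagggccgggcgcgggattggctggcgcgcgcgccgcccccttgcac
The window lies within the full span of Tet3, and 0 of its bases are annotated as exon. It holds 2 N-box matches, 172 and 109 bases before the start, and 1 TGGGAA match 121 bases before it. The Tet1 window also holds 1 N-box and 1 TGGGAA match, and Tet1 was not called for rhythm. TGGGAA lies in 1 window each of Dnmt1 and Dnmt3a as well. The Hes class C form CACGCG, found in 7.61% of all windows, had 0 matches in the Tet3 window and 1 in a Uhrf1 window. Such matches are common, with the N-box in 36.7% and TGGGAA in 21.6% of all windows, and none shows binding. The Tet3 window has 17 CpG dinucleotides and that of Tet2 51, beside a median of 6.0 over all RefSeq windows.

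Members varied together to different degrees over the 32 libraries. After centring log2 CPM within each experiment, the highest Pearson correlations between members were 0.74 for Uhrf1 with Dnmt3b, 0.68 for Tet1 with Tet2, and 0.63 for Dnmt3a with Dnmt3b. Tet3 had 0.53 with Uhrf1, 0.51 with Dnmt3a, 0.51 with Dnmt1 and 0.49 with Dnmt3b, beside 0.18 with Tet1 and 0.19 with Tet2. Uhrf1 had 0.51 with Dnmt3a and 0.45 with Dnmt1, and Dnmt3b with Tet1 had the lowest value, -0.39. These values are descriptions of points that share library, depth and base composition, and they include the 5 libraries that stand apart. The change with time was not removed before them, so members that rose together share that trend. Uhrf1, Dnmt3a, Dnmt3b and Tet3 were the members called rising. In their longest annotated transcript, Tet1 and Tet2 have the lowest GC content of the group, 43.7% and 45.4%, beside 51.9 to 54.0% for the other members. Each library's GC lean was the slope of centred log2 level on GC content across genes, with length in the same fit. Its correlation with the member's centred level was -0.26 for Tet1 and 0.03 for Tet2. For the other members it ran from 0.27 for Dnmt3a to 0.67 for Uhrf1. Tet1 and Tet2 moved the same way with the first principal component. The part of base composition in their correlation was not tested.

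By the same measure, genes among the most similar to each member were as follows. The change with time was left in, so genes with a like slope can rank high. For Dnmt3a they were Wdr33 (r = 0.91), Acadsb (0.90) and Igf2bp2 (0.90), and for Dnmt3b Sema4c (0.87) and Dbn1 (0.87). For Uhrf1 they were Cul7 (0.89), Ddx23 (0.86) and Rangap1 (0.85), and for Dnmt1 Cad (0.87) and Pdcd11 (0.81). For Tet1 they were Birc6 (0.93) and Cbl (0.92), for Tet2 Mdn1 (0.82), Igf2r (0.79) and Notch2 (0.78), and for Tet3 Spen (0.87), Elmsan1 (0.82) and Plekhg3 (0.81).

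The partners of each step were read from lists, with slopes in log2 per 100 min from the same edgeR quasi-likelihood fit and beside the background of 26.8% rising and 26.6% falling. Of 11 maintenance partners 1 rose and 4 fell, with a median slope of 0.0057. Hells, the chromatin remodeller needed for methylation of repeats, fell (-0.18 ± 0.028, adjusted p = 1.70e-06), as did Pcna, the replication clamp that binds Dnmt1 (-0.07 ± 0.017, adjusted p = 0.000342), and Cdca7l (-0.06 ± 0.013, adjusted p = 0.000192). The histone deacetylase Hdac1 rose (0.06 ± 0.011, adjusted p = 8.87e-05). Dnmt1 itself (0.0031) was not called beside these partners.

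Of 11 de novo partners and histone cues 3 rose and 2 fell, with a median of -0.01. The histone methyltransferase Ehmt2 rose (0.17 ± 0.019, adjusted p = 1.45e-09), as did Kdm2b, which binds unmethylated CpG islands (0.05 ± 0.015, adjusted p = 0.0098), and the demethylase Kdm1a (0.04 ± 0.013, adjusted p = 0.0070). Kdm1b, its paralog known from the oocyte, fell (-0.07 ± 0.022, adjusted p = 0.0111).

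Downstream of the Tet enzymes, 13 of 15 demethylation and repair genes were tested, 2 rose and 1 fell, with a median of 0.02. Xrcc1 (0.06 ± 0.019, adjusted p = 0.0113) and Parp1 (0.05 ± 0.012, adjusted p = 0.00157), which act in single-strand break repair, rose, and the glycosylase Neil3 fell (-0.12 ± 0.028, adjusted p = 0.000745). Tdg, the glycosylase that removes oxidised methylcytosine, had 75.9 to 91.4 CPM and a slope of 0.0054 ± 0.013 (adjusted p = 0.737). Of 12 tested Tet regulators and genes of cofactor supply 5 rose and 1 fell, with a median of 0.02. Cxxc4, which encodes the CXXC-domain protein Idax that binds Tet2, had the largest slope (0.25 ± 0.028, adjusted p = 2.02e-09). The isocitrate dehydrogenase genes Idh2 (0.15 ± 0.013, adjusted p = 2.40e-12) and Idh1 (0.09 ± 0.013, adjusted p = 4.87e-07), whose enzymes make the oxoglutarate that Tet enzymes use, rose, and D2hgdh, whose enzyme clears hydroxyglutarate, fell (-0.14 ± 0.027, adjusted p = 5.43e-05).

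Of 11 tested genes of methyl donor supply 2 rose and 6 fell, with a median of -0.03. Mat2a, which encodes the enzyme that makes S-adenosylmethionine (-0.08 ± 0.024, adjusted p = 0.00462), and Shmt1 (-0.10 ± 0.014, adjusted p = 1.92e-07) fell. Ahcy, which encodes the enzyme that clears the product S-adenosylhomocysteine, rose (0.08 ± 0.015, adjusted p = 3.92e-05). Of 7 tested methyl-CpG readers 2 rose and 2 fell, with a median of -0.01. Mbd2, a subunit of a deacetylase complex that binds methylated DNA, rose (0.12 ± 0.034, adjusted p = 0.00407), and the zinc-finger readers Zbtb33 (-0.12 ± 0.029, adjusted p = 0.000827) and Zbtb38 (-0.06 ± 0.024, adjusted p = 0.0309) fell. The Zbtb38 fall is that of the average, with a slope of 0.0052 in Ex4 and -0.13 in Ex5.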

How the data were processed

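Polyadenylated RNA of 32 dishes was sequenced with a strand-specific mRNA kit from 200 ng of total RNA, per the labels' protocols. The authors deposited 1 table of raw read counts per gene symbol. Per the submitters' processing notes, the build was mm10 and the tools named are HISAT2 2.1.0, HTSeq 0.6.1, cutadapt 1.14 and bcl2fastq 2.17.1.14. With annotation and strand setting not given in the sources used here, overlapping genes may share reads.

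CPM with TMM factors and edgeR 4.0.16 (R 4.3.3) quasi-likelihood fits were computed for the 11772 genes that reached 1 CPM in 16 or more of the 32 libraries. Each experiment had its own intercept (at 285 min) and its own straight line over time, both shared 1 cosine and 1 sine term for the Hes7 phase, with Benjamini-Hochberg adjustment at 0.05 over all tested genes. Calls by permutation used 100000 resamples of log2 ratios of CPM + 0.5. Samples were grouped by the experiment and time of their labels, and no 2 libraries were identical (0 pairs). Positions and lengths come from GENCODE M21 (GRCm38), where 99.9% of symbols matched, and sequences from RefSeq (GRCm38.p6). The procedure was tested on simulated data.

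The 8 genes and all lists were chosen with earlier results of these data known. Named beside them are, per list, up to 4 called genes with the largest absolute slopes at a mean of at least 5 CPM, and for each tested gene the 3 most correlated genes at that level; a few genes that this rule names are not reported here. The epiblast markers, Tdg and Dnmt3c were chosen after their values were seen. Alternatives were RLE factors, DESeq2 1.42.0, limma-voom 3.58.1, other filters, time models and periods, each experiment alone, each library left out, and 2 fits chosen after seeing the data: one without the 5 libraries that stand apart and one with GC and length offsets. Depth was 16.1 to 29.5 M counts per library, which limits the precision of low genes.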

Additional observations from a re-analysis of the deposited data

Results flagged for a closer look

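The slope of Tet2 differed between the experiments, by -0.16 log2 per 100 min for Ex5 minus Ex4 (-0.162, edgeR quasi-likelihood, adjusted p = 0.0377). The Ex4 slope was 0.10 and the Ex5 slope -0.06, and the call was lost without any 1 of 8 libraries.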

How the results depend on the processing

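No result of the 7 tested genes reversed after a call. The trends of Dnmt3a and Dnmt3b and the level differences of Dnmt1, Dnmt3a, Dnmt3b and Tet3 stayed called under each alternative run. Of the trend calls, Ex5 alone kept 2 of 4 members, and Ex4 alone called 3778 genes in place of 6280. The slope difference of the members went from 1 call to 0 without the first and last time points, without the 5 libraries that stand apart and with GC and length offsets, and over all genes from 1894 to 1118 without those 5. The rhythm of the members went from 1 call to 0 without the first and last time points, in Ex4 alone, in Ex5 alone, at periods of 120 and 180 min and without the 5 libraries, and over all genes from 155 to 40 in Ex4 alone and 47 in Ex5 alone. Curvature went from 2 members to 0 and from 2176 genes to 1174 without the first and last time points, and to 0 members and 887 genes without the 5 libraries. Of the 5 ratios, 1 was called over all libraries, 2 in Ex5 alone and 3 without the 5 libraries. The fits without time points or libraries and those of 1 experiment hold fewer libraries, the fits at other periods and with GC and length offsets hold all 32, and the cause of the changed calls was not tested.

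With 1 library left out, the trend called 3 to 4 members and 5950 to 6556 genes, the slope difference 0 to 1 and 1491 to 2025, the level difference 5 to 6 and 6321 to 6563, and the rhythm 0 to 1 and 124 to 233, with 233 without time point 10 of Ex5. The time point numbers do not pair the courses: 6 of 16 pairs had a correlation of deviations over 0.1 (median 0.053). With the replicate block the level difference called 5 members and 6052 genes, beside 5 and 6485. At this depth a count of 0 for Dnmt3l allows up to 0.102 to 0.186 CPM.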

Other observations

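Genes that DNA methylation is known to hold silent were read as a further list. Of 16 germline genes with methylated promoters in somatic cells 0 passed the expression filter, and their summed level was 0.492 to 1.48 CPM over the 32 libraries. The highest single value was 1.33 CPM for Brdt, which encodes a testis bromodomain protein. Methylation itself was not measured.

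Imprinted genes, which are expressed from 1 parental allele under the control of inherited methylation, were tested for 14 of 19 listed; H19, Meg3, Rian and Kcnq1ot1 were not analysed here. Of the 14, 4 rose and 3 fell, beside 26.8% and 26.6% of all tested genes, with a median slope of 0.01 log2 per 100 min. For level, 6 of the 14 were called higher and 5 lower in Ex5, beside 27.4% and 27.7% of all tested genes. Peg10, a retrotransposon-derived gene of the placenta, fell (-0.36 ± 0.019, edgeR quasi-likelihood, adjusted p = 3.40e-18) and was lower in Ex5 by -1.12 log2 (adjusted p = 2.06e-29). Phlda2, which limits placental growth, fell (-0.25 ± 0.027, adjusted p = 1.13e-09) and was higher in Ex5 by 0.82 log2 (adjusted p = 7.27e-20). Peg3, a zinc-finger gene, fell (-0.13 ± 0.026, adjusted p = 6.16e-05), and the growth factor gene Igf2 rose (0.19 ± 0.026, adjusted p = 1.24e-07). The counts do not separate the alleles.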
